A study of Mus musculus with 9 samples.

Results

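MHC class I presentation genes were followed in RNA-seq counts from 9 whole NB9464 tumors. NB9464 is a mouse neuroblastoma line. The 10 genes were picked by symbol for their role, with earlier results of these data known, and they are the light chain gene B2m, the heavy chain genes H2-K1, H2-D1 and H2-T23, the peptide transporter genes Tap1 and Tap2, the loading gene Tapbp, the inducible proteasome genes Psmb8 and Psmb9, and the transactivator gene Nlrc5. All 10 were among the 54429 symbols of the table, and all 10 were among the 15931 genes that passed the low-count filter. Wild-type C57BL/6 mice received 4000000 NB9464 cells under the skin, and treatment started at a tumor volume of 250 mm3. Each of the 3 groups held 3 tumors. The first received vehicle. The second received R788 (fostamatinib, whose active form inhibits Syk) at 50 mg/kg with anti-PDL1, a checkpoint-blocking antibody. The third, Rad + R788 + anti-PDL1, also received 10 Gy of radiation. The last 2 groups are called drug-treated and irradiated where the full names would be long. The series text lists 4 doses from day 28 to day 37. The treated groups differ from each other by the radiation, but no group received R788 or anti-PDL1 alone, so these 2 agents cannot be told apart, and the labels do not link tumors to numbered mice, so p-values measure the spread between these 9 samples.

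Total counts ranged from 18276683 to 23397886 per library, so that 3 counts, the limit that a count of 0 allows, corresponded to 0.115 to 0.221 CPM, counts per 1000000 library counts scaled by edgeR's TMM factors. Such limits cover counting error only. Rad + R788 + anti-PDL1 replicate 1 stood apart, with a TMM factor of 0.743 against 0.975 to 1.12 in the other 8 libraries and a correlation of log2 CPM with each of them of 0.86 to 0.91 across genes. Of the neuroblast markers, Phox2a, Th and Dbh had at most 3 counts in every library, whereas Hand2 had 6545 to 12901 counts and Mycn 1265 to 6107. Isl1, another of these markers, had 0 counts in all vehicle tumors, 48 to 80 after R788 + anti-PDL1 and 14 to 27 with radiation added, and was higher after R788 + anti-PDL1 with an adjusted p of 0.0344 by edgeR, a call kept in 9 of the 16 alternatives that tested it. The tumors therefore carried only some of the defining transcripts of sympathetic neuroblasts.

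MHC class I molecules carry short peptides from inside the cell to its surface, where CD8+ T cells read them and inhibitory receptors of NK cells register the molecules themselves. Peptides are cut by the proteasome, whose catalytic subunits are exchanged for inducible ones under interferon gamma, pumped into the endoplasmic reticulum by the TAP transporter, and loaded with the help of tapasin onto a heavy chain paired with beta-2 microglobulin. NLRC5 has no DNA binding domain of its own and drives class I genes through factors bound to a conserved promoter module. Neuroblastoma is known for low class I display.

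Short letter patterns were sought in the sequence, and not the whole conserved module. RefSeq promoter windows (GRCm38.p6) were matched for 8 of the 10 genes, all but Tap2 and Nlrc5, and the 250 bases before each annotated start were searched on both strands for 5 letter patterns. TGACG is the core of a cAMP response element, CCAAT is the box bound by NF-Y, AANNGAAA resembles the core of interferon response elements, and GGGNNTTCC and GGACTTTCC are forms of the kappaB site. H2-K1, H2-D1 and B2m are shown because they shared an arrangement: TGACG on the gene's own strand was followed, with starts 25 bases apart, by CCAAT read on the other strand. In the stretches below, written 5′ to 3′ on the gene's strand, the capitals mark TGACG and the reversed CCAAT box (ATTGG). The stretches lie at chr17:34000359-34000388 (minus strand), chr17:35262993-35263022 (plus strand) and chr2:122147609-122147638 (plus strand).
H2-K1: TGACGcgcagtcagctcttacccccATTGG
H2-D1: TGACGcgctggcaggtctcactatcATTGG
B2m: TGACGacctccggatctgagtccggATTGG

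Of the 30 bases, 23 were identical between H2-K1 and H2-D1 and 13 between H2-K1 and B2m, 10 of them being the capitals. This spacing was found after the sequences had been looked at, and 18 of 32851 promoter windows, or 0.0548%, hold it, belonging to 15 gene symbols. Besides these 3 genes they include the class I gene H2-M3. The rest are not class I genes: BC051142, Ghitm, Gm33299, Hspa14, Ibsp, Nfe2l1, Per1, Slc8a3, Trim26, Ubn1 and Xpnpep1. Either pattern alone was common. TGACG was in 17.8% of all windows and in those of B2m, H2-D1, H2-K1, Psmb9 and Tap1. CCAAT was in 33.8% of all windows and in those of 7 of the 8 genes, all but Psmb8. Both patterns with starts at most 40 bases apart were in 3.04% of windows, again those of B2m, H2-D1 and H2-K1.

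Farther from the start, the same 3 genes carried the kappaB and interferon response patterns close to each other. The next stretches are shown because H2-K1 and H2-D1, whose counts are compared below, have 28 of 29 bases in common there. Capitals mark the kappaB form and AANNGAAA or its reverse complement. They lie at chr17:34000430-34000458 (minus strand), chr17:35262923-35262951 (plus strand) and chr2:122147550-122147569 (plus strand).
H2-K1: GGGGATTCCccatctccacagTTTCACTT
H2-D1: GGGGATTCCccatctcctcagTTTCACTT
B2m: AACTGAAAatgGGAAAGTCC

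GGGNNTTCC was in 4.98% of all windows, GGACTTTCC, which B2m carries in reverse complement, in 0.283%, and AANNGAAA in 21.3%. AANNGAAA also occurred at 2 places in the window of H2-T23. Over a local alignment of the 250-base windows, H2-K1 and H2-D1 were identical at 161 of 177 columns (91.0%). The whole windows of H2-K1 (chr17:34000348-34000597, minus strand) and B2m (chr2:122147437-122147686, plus strand) are given with the matches to the 5 patterns in capitals, as the longer context of the stretches above. That of H2-D1 is not, since 1 GENCODE transcript with an earlier start counts it as untranslated region.
H2-K1: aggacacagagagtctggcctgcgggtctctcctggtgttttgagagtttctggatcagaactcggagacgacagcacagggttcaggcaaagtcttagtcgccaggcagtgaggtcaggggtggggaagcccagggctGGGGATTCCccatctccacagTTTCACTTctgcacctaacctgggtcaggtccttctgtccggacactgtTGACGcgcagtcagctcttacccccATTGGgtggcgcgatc
B2m: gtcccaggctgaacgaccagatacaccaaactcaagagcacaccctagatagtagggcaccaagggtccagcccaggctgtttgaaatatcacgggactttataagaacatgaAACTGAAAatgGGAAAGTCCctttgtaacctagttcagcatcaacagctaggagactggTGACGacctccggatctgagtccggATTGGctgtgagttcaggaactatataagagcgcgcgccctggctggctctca

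**Figure D1:**
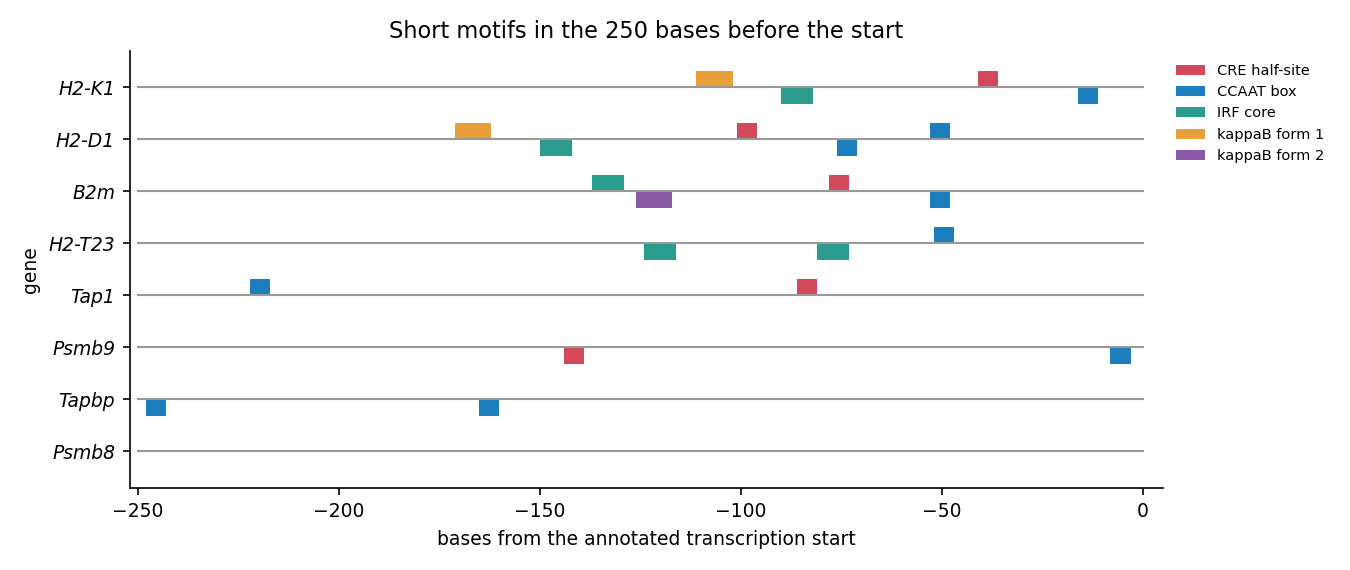
Positions of the 5 letter patterns in the 250 bases before the RefSeq start of 8 class I presentation genes, with the distance from the start in bases on the horizontal axis and a row per gene. Blocks above a line lie on the gene's strand and blocks below it on the other strand. Red is TGACG, blue CCAAT, green AANNGAAA, orange GGGNNTTCC and purple GGACTTTCC. H2-K1, H2-D1 and B2m show the red and blue pair 25 bases apart, and Psmb8 shows no block.

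A letter match describes the sequence and is not a bound site. The windows of Tapbp (chr17:33919228-33919477), Psmb8 (chr17:34197945-34198194), Psmb9 (chr17:34187331-34187580) and H2-D1 (chr17:35262844-35263093) lie inside these genes as GENCODE annotates them. The window of H2-T23 (chr17:36032702-36032951) lies partly inside its gene. The matches in these windows therefore depend on the start used. Tap1 and Psmb9 are transcribed away from each other, and their windows share 225 of 250 bases, so the TGACG and CCAAT matches counted for 1 are also those of the other. In the GENCODE M21 annotation (GRCm38), the 2 genes overlap by 212 bases at chr17:34187553-34187764. Psmb9, Tap1, Psmb8 and Tap2 lie within 34.3 kb of the MHC region of chromosome 17. With Tapbp, H2-K1, H2-D1 and H2-T23, the 8 linked genes span 2.12 Mb, whereas B2m (chr2:122147686-122153083) is on chromosome 2 and Nlrc5 (chr8:94434356-94527272) on chromosome 8. From low to high coordinates the linked genes are Tapbp (chr17:33915899-33929292), H2-K1 (chr17:33996017-34000347), Psmb9 (chr17:34181987-34187764), Tap1 (chr17:34187553-34197225), Psmb8 (chr17:34197721-34201454), Tap2 (chr17:34203527-34216321), H2-D1 (chr17:35262730-35267499) and H2-T23 (chr17:36029773-36032855). Counts cover whole genes, with no split by exon. Since the strandedness of the libraries was not given in the sources used here, the counts of Tap1 and Psmb9 could include reads of each other. Tapbp overlaps Zbtb22 (395 to 696 counts) on its own strand, and Nlrc5 overlaps 9330175E14Rik (2 to 71 counts) on the other strand. Class I heavy chain genes are near copies of one another, so the counts of H2-K1, H2-D1 and H2-T23 depend on how reads that fit several genes were divided.

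Levels between genes were compared as CPM per kb of the longest transcript (mean ± SD, n = 3). In vehicle tumors B2m was highest at 358 ± 67.8, followed by H2-D1 at 87.5 ± 21.2, Tapbp at 27.1 ± 4.67, H2-K1 at 13.2 ± 3.91 and Tap2 at 3.82 ± 0.175. Each of these 5 was separated from its neighbours in all 3 tumors. Psmb8 (1.64 ± 0.279), H2-T23 (1.53 ± 0.488), Nlrc5 (0.960 ± 0.401), Tap1 (0.748 ± 0.403) and Psmb9 (0.565 ± 0.242) followed, and neighbours among them overlapped. After R788 + anti-PDL1, H2-K1 stood above Tapbp, at 30.9 ± 7.11 against 18.7 ± 0.0766, with no overlap. Nlrc5 held the fifth place instead of the eighth, at 4.68 ± 2.64, and overlapped with H2-T23. After Rad + R788 + anti-PDL1 the order was B2m at 428 ± 109, H2-D1 at 136 ± 47.3, H2-K1 at 54.9 ± 62.2 and Tapbp at 31.8 ± 6.48, and H2-K1 overlapped with both of its neighbours. Psmb9 had the lowest mean of the 10 in every group, and it overlapped with Tap1 in each of them.

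The shift across the 10 genes was uneven. In R788 + anti-PDL1 tumors Nlrc5, H2-T23, H2-K1 and Psmb8 were higher than in every vehicle tumor, B2m and Tapbp were lower than in every vehicle tumor, H2-D1 covered nearly the vehicle range, and Tap2 lay on both sides of it. In Rad + R788 + anti-PDL1 tumors all 10 fitted log2 fold changes against vehicle were above 0, and without replicate 3 of this group 9 of 10 still were, most of them at smaller values. Only Nlrc5 and Tap2 were above every vehicle tumor. No gene of the 10 passed an adjusted p of 0.05 in the edgeR quasi-likelihood fit in any of the 3 comparisons. Nlrc5 was the nearest, with an adjusted p of 0.0663 and 0.0980 in the 2 comparisons with vehicle. Because these were whole tumors, more cells of a type and more RNA per cell cannot be told apart in any of these values.

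**Figure D2:**
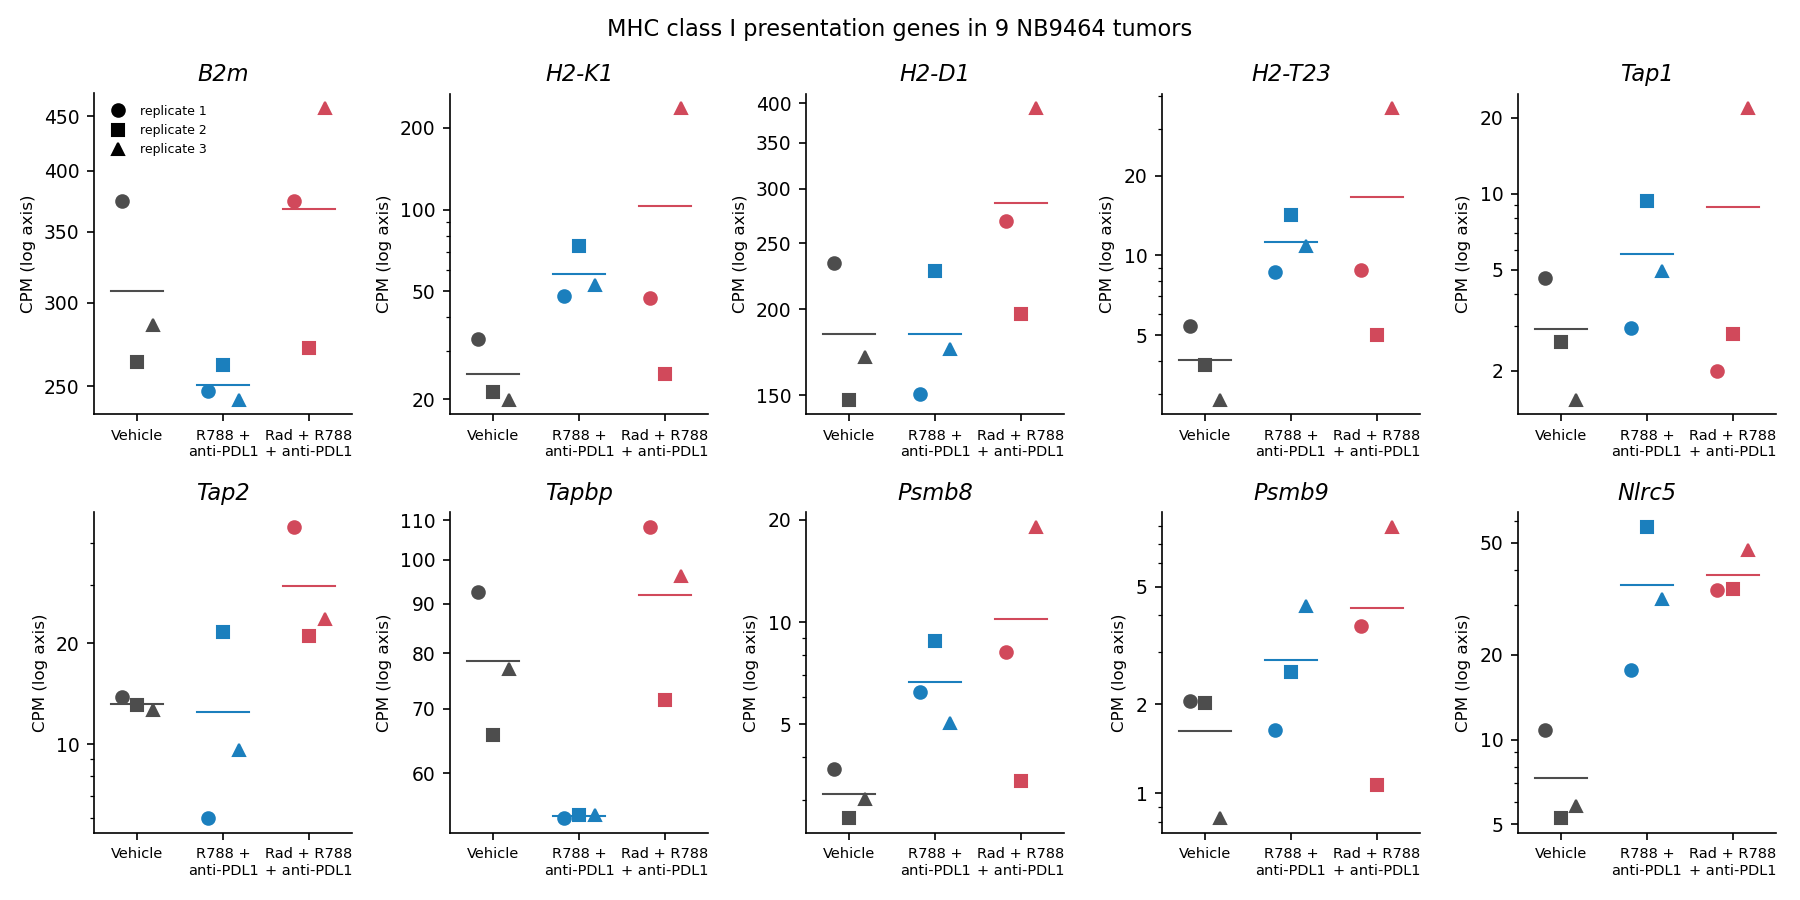
TMM-normalized CPM of the 10 genes in each tumor, on log axes, by treatment group. Each point is a tumor, its shape gives the replicate number (which pairs nothing between groups), and the line is the mean of 3 tumors. Nlrc5 is higher in all 6 treated tumors than in the vehicle tumors, and replicate 3 of Rad + R788 + anti-PDL1 is the highest of 9 for 7 genes.

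Against vehicle, R788 + anti-PDL1 gave a median log2 fold change of 0.89 over the 10 genes and of -0.02 over all genes tested. The fitted value was above 0 for 7 of the 10, against 48.4% of all genes. By edgeR with Benjamini-Hochberg adjustment 0 of 10 were called, where 0.678% of all genes were. At an unadjusted p under 0.05, 2 of 10 were higher (Nlrc5 and H2-T23) against 5.96% of all genes, and 1 was lower (Tapbp) against 5.69%. By DESeq2 1 of 10 was called (Nlrc5), against 4.86%. The groups did not overlap for 4 higher genes, against 13.6% of all genes, and for 2 lower ones, against 16.5%. When the fit held only the 6 libraries of this comparison, Nlrc5, H2-K1 and H2-T23 were called, where 3.84% of genes were.

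Against vehicle, Rad + R788 + anti-PDL1 gave a median log2 fold change of 1.49 over the 10 genes and of 0.05 over all genes, and 10 of 10 fitted values were above 0, against 52.9% of all genes. By edgeR 0 of 10 were called, where 0.0439% of all genes were. At an unadjusted p under 0.05, H2-K1, H2-T23, Tap2, Psmb8 and Nlrc5 were higher, 5 of 10 against 7.71% of all genes, and 0 were lower, against 5.51%. DESeq2 called 3 of 10 (H2-K1, H2-T23 and Nlrc5), against 3.85%. The groups did not overlap for 2 higher genes, against 9.27%, and for 0 lower ones, against 11.2%. Without replicate 3 of the irradiated group the median over the 10 genes was 0.53.

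Set against the drug-treated group, the irradiated group had a median of 0.62 over the 10 genes and of 0.04 over all genes, with 10 of 10 fitted values above 0, against 52.5% of all genes. By edgeR 0 of 10 were called, where 0.00628% of all genes were. At an unadjusted p under 0.05, B2m, Tap2 and Tapbp were higher, 3 of 10 against 11.7%, and 0 were lower, against 6.65%. DESeq2 called Tapbp, 1 of 10 against 5.62%. The groups did not overlap for 2 higher genes (B2m and Tapbp), against 14.2%, and for 0 lower ones, against 13.2%. Without replicate 3 of the irradiated group the median turned to -0.14. The 3 comparisons share groups, so they are not independent of one another.

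**Figure D3:**
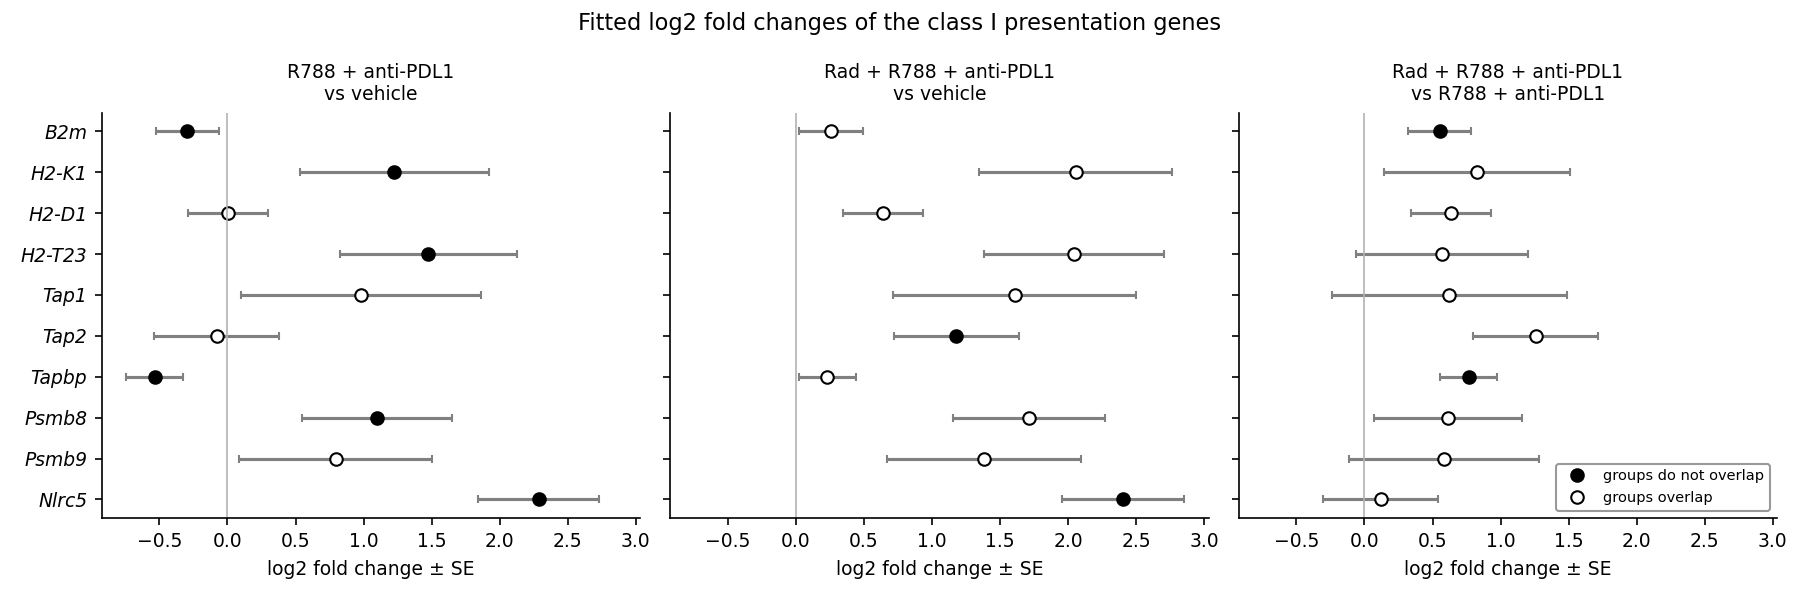
Fitted log2 fold change ± SE (edgeR, 3 tumors a group) of the 10 genes in the 3 comparisons. Filled points mark genes whose 3 tumors in the first group lie all above or all below the 3 of the second. Nlrc5 is at 2.29 and 2.40 against vehicle, and B2m, H2-D1 and Tapbp lie between -0.54 and 0.64 there.

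Nlrc5 encodes the transactivator of class I genes. It was at 10.8, 5.25 and 5.81 CPM in the vehicle tumors, 17.6, 57.1 and 31.7 CPM after R788 + anti-PDL1, and 33.9, 34.4 and 47.2 CPM after Rad + R788 + anti-PDL1. All 6 treated tumors were above all 3 vehicle tumors, and the 2 treated groups overlapped. The log2 fold change against vehicle was 2.29 ± 0.45 (SE), or 4.88-fold, after R788 + anti-PDL1 and 2.40 ± 0.45, or 5.29-fold, with radiation added. The irradiated group differed from the drug-treated one by 0.12 ± 0.42, with an adjusted p of 0.895 by edgeR.

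The call for Nlrc5 depended on the fit, its size less so. Over the 17 alternatives, the log2 fold change of R788 + anti-PDL1 against vehicle ran from 1.76 to 2.71 and its adjusted p from 4.53e-05 to 0.303, and 4 alternatives called it. These were DESeq2 (adjusted p = 4.53e-05), no low-count filter (0.0179, where 0.712% of genes were called), only the 6 libraries compared (0.0406) and the fit without irradiated replicate 1 (0.0254, where 5.15% of genes were called). For Rad + R788 + anti-PDL1 against vehicle the log2 fold change ran from 2.21 to 2.81, and DESeq2 (adjusted p = 2.47e-05) and the fit without a low-count filter (0.0242, where 0.25% were called) called it, over a range of adjusted p from 2.47e-05 to 0.509. The value above 0 thus held in every alternative against vehicle.

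H2-K1 and H2-D1 encode the classical heavy chains of this mouse strain, which present peptides to CD8+ T cells. H2-K1 was at 33.2, 21.2 and 19.9 CPM in vehicle tumors, 47.9, 73.1 and 52.8 CPM after R788 + anti-PDL1, and 47.2, 24.7 and 237 CPM after Rad + R788 + anti-PDL1. The drug-treated group did not overlap with vehicle, while the irradiated group did through its replicate 2. Its log2 fold change was 1.23 ± 0.69 (adjusted p = 0.566 by edgeR) after R788 + anti-PDL1 and 2.06 ± 0.71 (0.306) with radiation added. The second value was 0.53 without irradiated replicate 3. Over the 17 alternatives the adjusted p ran from 0.0394 (only the 6 libraries compared) to 0.882 in the first comparison and from 0.0479 (DESeq2) to 0.706 in the second, and no other alternative called H2-K1.

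H2-D1 was at 234, 148 and 171 CPM in vehicle tumors, 151, 228 and 175 CPM after R788 + anti-PDL1, and 269, 197 and 393 CPM after Rad + R788 + anti-PDL1. The vehicle and R788 + anti-PDL1 tumors covered nearly the same range, and the irradiated tumors overlapped with both. The log2 fold changes were 0.00 ± 0.29 (adjusted p = 0.997 by edgeR), 0.64 ± 0.29 (0.385) and, between the treated groups, 0.63 ± 0.29 (0.281). Without irradiated replicate 3 the last 2 were 0.34 and 0.33.

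The count ratio of H2-K1 to H2-D1 within a library needs no scaling between libraries. It was 0.142, 0.143 and 0.117 in vehicle tumors, 0.318, 0.321 and 0.302 after R788 + anti-PDL1, and 0.176, 0.125 and 0.602 after Rad + R788 + anti-PDL1. The 3 drug-treated tumors lay together above all vehicle tumors, and irradiated replicate 3 stood above them all. The difference in mean log2 ratio was 1.23 between R788 + anti-PDL1 and vehicle, with a two-sided exact permutation p of 0.1, the smallest that 3 tumors against 3 allow. It was 0.83 (exact permutation p = 0.3) for the irradiated group against vehicle and -0.41 (exact permutation p = 0.7) between the treated groups. This ratio was chosen after its values were seen, and with its 3 tests 12 exact tests on ratios and sums were run in all, whose Benjamini-Hochberg adjusted p were 0.6 to 0.8.

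H2-T23 encodes the heavy chain of Qa-1, a nonclassical molecule that shows leader peptides of other class I chains to the receptor of CD94 and NKG2 proteins on NK cells. It was at 5.41, 3.86 and 2.85 CPM in vehicle tumors, 8.64, 14.2 and 10.9 CPM after R788 + anti-PDL1, and 8.85, 5.02 and 36.1 CPM after Rad + R788 + anti-PDL1. As for H2-K1, the drug-treated group was wholly above vehicle and irradiated replicate 2 lay inside the vehicle range. The log2 fold change was 1.48 ± 0.65 (adjusted p = 0.424 by edgeR) and 2.04 ± 0.66 (0.281) against vehicle, and the second was 0.77 without irradiated replicate 3. Over the alternatives the adjusted p ran from 0.0486 (only the 6 libraries compared) to 0.801 and from 0.0378 (DESeq2) to 0.706.

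B2m encodes beta-2 microglobulin, the light chain that all these heavy chains need. It was at 374, 264 and 286 CPM in vehicle tumors, 248, 262 and 243 CPM after R788 + anti-PDL1, and 374, 272 and 458 CPM after Rad + R788 + anti-PDL1. The drug-treated tumors lay just below the vehicle tumors and below the irradiated ones, with no overlap with either, while vehicle and irradiated tumors overlapped. The log2 fold changes were -0.30 ± 0.23 (adjusted p = 0.710 by edgeR), 0.26 ± 0.23 (0.594) and, between the treated groups, 0.55 ± 0.23 (0.258). Without irradiated replicate 3 the second was 0.06, and without vehicle replicate 1 the first was -0.11.

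Summed over 18 class I heavy chain genes, which does not depend on how reads were divided among them, the level was 239 to 327 CPM in vehicle tumors, 255 to 385 CPM after R788 + anti-PDL1, and 277 to 806 CPM after Rad + R788 + anti-PDL1. All 3 groups overlapped. The differences in mean log2 CPM were 0.17 (exact permutation p = 0.6), 0.72 (0.2) and, between the treated groups, 0.55 (0.4). H2-K1 made up 7.67% to 10.2% of this sum in vehicle tumors and 17.8% to 19.0% after R788 + anti-PDL1. In irradiated replicates 1 to 3 it made up 11.6%, 8.89% and 29.4%.

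Tap1 and Tap2 encode the subunits of the TAP peptide transporter. Tap1 was at 4.64, 2.61 and 1.53 CPM in vehicle tumors, 2.95, 9.40 and 4.96 CPM after R788 + anti-PDL1, and 1.99, 2.79 and 21.8 CPM after Rad + R788 + anti-PDL1. All 3 groups overlapped, and irradiated replicate 3 alone was far above the rest. The log2 fold changes against vehicle were 0.98 ± 0.88 (adjusted p = 0.745 by edgeR) and 1.61 ± 0.89 (0.429), and without irradiated replicate 3 the latter turned to -0.29. The former was 0.43 without drug-treated replicate 2 and 1.499 without vehicle replicate 1.

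Tap2 was at 13.8, 13.1 and 12.6 CPM in vehicle tumors, 6.00, 21.7 and 9.59 CPM after R788 + anti-PDL1, and 44.8, 21.0 and 23.7 CPM after Rad + R788 + anti-PDL1. The vehicle tumors were close together inside the wide range of the drug-treated ones, and all irradiated tumors were above vehicle, the highest being replicate 1 and not replicate 3. The log2 fold change was -0.08 ± 0.46 (adjusted p = 0.971 by edgeR) after R788 + anti-PDL1, a direction that turned to 0.02 under upper quartile normalization. It was 1.18 ± 0.46 (0.341) with radiation added and 1.26 ± 0.46 (0.233) between the treated groups. Without irradiated replicate 1 these were 0.79 and 0.85.

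Tapbp encodes tapasin, which holds the empty heavy chain at the transporter. It was at 92.6, 65.7 and 77.1 CPM in vehicle tumors, 53.9, 54.3 and 54.3 CPM after R788 + anti-PDL1, and 108, 71.4 and 96.3 CPM after Rad + R788 + anti-PDL1. The 3 drug-treated tumors were within 1.01-fold of one another and below all 6 others, and the vehicle and irradiated tumors overlapped. The log2 fold changes were -0.54 ± 0.21 (adjusted p = 0.353 by edgeR) after R788 + anti-PDL1 and 0.23 ± 0.21 (0.596) with radiation added. Between the treated groups the value was 0.76 ± 0.21, with an adjusted p of 0.207 by edgeR and 0.0286 by DESeq2, over a range of 0.0286 to 0.528 in the 17 alternatives.

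Psmb8 and Psmb9 encode the inducible subunits LMP7 and LMP2 of the immunoproteasome. Psmb8 was at 3.70, 2.65 and 3.01 CPM in vehicle tumors, 6.22, 8.79 and 5.04 CPM after R788 + anti-PDL1, and 8.19, 3.40 and 19.1 CPM after Rad + R788 + anti-PDL1. The drug-treated group was above all vehicle tumors, and the irradiated group overlapped with vehicle through replicate 2. The log2 fold changes against vehicle were 1.10 ± 0.55 (adjusted p = 0.506 by edgeR) and 1.71 ± 0.56 (0.285), and without irradiated replicate 3 the latter was 0.88.

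Psmb9 was at 2.04, 2.02 and 0.822 CPM in vehicle tumors, 1.63, 2.56 and 4.30 CPM after R788 + anti-PDL1, and 3.69, 1.07 and 7.99 CPM after Rad + R788 + anti-PDL1. These values rest on 15 to 175 counts, and all 3 groups overlapped. The log2 fold changes against vehicle were 0.79 ± 0.71 (adjusted p = 0.744 by edgeR) and 1.38 ± 0.71 (0.411), the former 0.36 without drug-treated replicate 3 and the latter 0.52 without irradiated replicate 3.

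Psmb8 replaces the constitutive subunit Psmb5 in the immunoproteasome, and Psmb9 replaces Psmb6. As a percentage of the Psmb5 count in the same library, Psmb8 was 2.49%, 2.76% and 2.93% in vehicle tumors, 7.14%, 11.0% and 5.60% after R788 + anti-PDL1, and 2.08%, 3.25% and 17.2% after Rad + R788 + anti-PDL1. The drug-treated tumors were all above vehicle, whereas irradiated replicates 1 and 2 lay near vehicle and replicate 3 above all. The difference in mean log2 ratio from vehicle was 1.47 (exact permutation p = 0.1, the smallest possible) after R788 + anti-PDL1 and 0.83 (exact permutation p = 0.7) with radiation added. Between the treated groups it was -0.64 (exact permutation p = 0.5).

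Psmb9 was 0.812%, 1.22% and 0.426% of Psmb6 in vehicle tumors, 0.884%, 1.92% and 2.52% after R788 + anti-PDL1, and 0.501%, 0.601% and 4.29% after Rad + R788 + anti-PDL1. The groups overlapped, with differences of 1.10 (exact permutation p = 0.2), 0.53 (0.8) and -0.57 (0.7). The low ratios of irradiated replicate 1 came with a high level of the constitutive genes in that library. Psmb5 was at 394 CPM there against 80.0 to 148 CPM in the other 8 tumors, and Psmb6 at 736 CPM against 134 to 252 CPM.

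**Figure D4:**
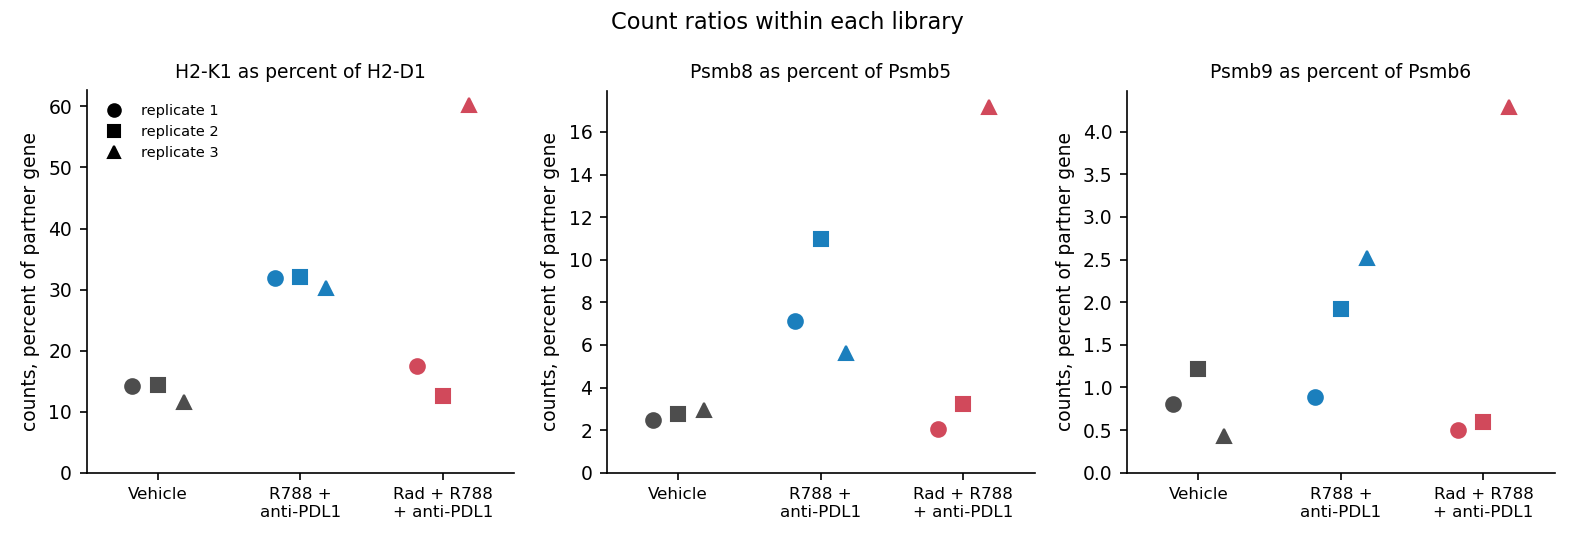
Counts of H2-K1 as a percentage of H2-D1, of Psmb8 as a percentage of Psmb5 and of Psmb9 as a percentage of Psmb6 in each library, on linear axes from 0. Each point is a tumor and its shape the replicate number. The 3 drug-treated tumors lie above the vehicle tumors in the first 2 plots, and irradiated replicate 3 is the highest in all 3.

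The irradiated tumors differed widely from one another. Relative to the vehicle mean, the median log2 difference over the 10 genes was 1.06 in replicate 1, 0.10 in replicate 2 and 2.46 in replicate 3, against 0.13, 1.10 and 0.78 in the 3 drug-treated tumors. Replicate 3 was the highest of all 9 tumors for B2m, H2-K1, H2-D1, H2-T23, Tap1, Psmb8 and Psmb9. Within the irradiated group the highest tumor exceeded the lowest by 11.0-fold for Tap1, 9.60-fold for H2-K1, 7.50-fold for Psmb9 and 7.18-fold for H2-T23, but by 1.39-fold for Nlrc5 and 1.52-fold for Tapbp. Leaving out replicate 3 turned the difference between the treated groups to below 0 for H2-K1 (-0.69), H2-T23 (-0.70), Tap1 (-1.27), Psmb8 (-0.21), Psmb9 (-0.27) and Nlrc5 (-0.06).

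The sums of leukocyte markers followed these values only in part. The pan-leukocyte, macrophage and T and NK cell sums were highest in irradiated replicate 3. In irradiated replicate 1, with a class I median of 1.06, they lay in or just above the vehicle range. Single markers went both ways in that tumor. Itgb2, Cd53 and Cd68 had 69, 50 and 142 counts against 242 to 368, 219 to 282 and 473 to 931 in vehicle tumors. Coro1a, Cd52 and C1qa had 691, 242 and 1935 counts against 291 to 470, 56 to 118 and 574 to 1342 in vehicle tumors. The 6 pan-leukocyte markers (Ptprc, Coro1a, Laptm5, Itgb2, Cd52, Cd53) summed to 85.1 to 133 CPM in vehicle tumors, 175 to 220 CPM after R788 + anti-PDL1, and 121, 94.0 and 436 CPM in irradiated replicates 1 to 3, and all 6 were highest in replicate 3. The 8 macrophage markers summed to 186 to 389, 401 to 446 and, in the irradiated tumors, 394, 232 and 1257 CPM, with 7 of 8 highest in replicate 3. The 12 T and NK cell markers summed to 2.08 to 5.63, 13.2 to 26.2 and, in the irradiated tumors, 4.35, 7.92 and 45.8 CPM, with 9 of 12 highest in replicate 3. Cd4 made up much of the T and NK sum, at 22.9, 2.03 and 12.2 CPM in the drug-treated tumors, and the other 11 genes summed to 1.10 to 2.54 CPM in vehicle tumors, 3.35, 11.2 and 4.34 CPM after R788 + anti-PDL1, and 3.10, 2.59 and 28.4 CPM in the irradiated tumors. Cd3e, a chain of the T cell receptor complex, had 3, 3 and 5 counts in vehicle tumors and 4, 5 and 1 after R788 + anti-PDL1, against 54 in irradiated replicate 3. For these 3 lists the drug-treated group lay above vehicle without overlap. The 4 B cell markers did too, at 2.06 to 3.28 against 1.08 to 1.64 CPM, and the irradiated tumors (1.17 to 3.20 CPM) overlapped with both.

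Marker sums of other cell types also differed between groups, some of them mostly through few genes. The 7 dendritic cell markers summed to 26.8 to 29.5 CPM in vehicle, 27.7 to 35.7 CPM in drug-treated and 31.8 to 65.0 CPM in irradiated tumors, the last without overlap with vehicle. The highest sum, in irradiated replicate 1, was mostly Batf3, with 624 counts there against 123 to 231 in the other tumors. Flt3, Xcr1 and Clec9a had 0, 3 and 7 counts in that tumor. All 6 genes of the list that were tested had fitted values above 0 in the irradiated group against vehicle. The 6 skin and muscle markers summed to 6.20 to 9.06 CPM in vehicle tumors, 4.06, 65.7 and 24.3 CPM after R788 + anti-PDL1, and 86.9, 57.4 and 49.2 CPM in the irradiated tumors. The highest of these libraries in each treated group were also the highest of their group for Tap2 and for Tapbp. Drug-treated replicate 2 was the highest of its group for all of the 10 genes but Psmb9. Krt5, a keratin of the basal epidermis, had 68 to 136 counts in vehicle tumors, 1017 to 1066 in irradiated tumors and 43, 1652 and 554 after R788 + anti-PDL1. It made up most of the skin and muscle sum in the irradiated tumors. Krt14, another keratin of this list, went the other way. It had 4, 41 and 43 counts in vehicle tumors, 0 in each tumor after R788 + anti-PDL1, and 0, 2 and 0 in irradiated tumors. The 10 neuroblast markers summed to 492 to 616 CPM in vehicle, 629 to 699 CPM in drug-treated and 624 to 972 CPM in irradiated tumors, both treated groups lying above vehicle. Hand2 made up most of this sum in every tumor, and 5 of the 10 markers had at most 3 counts in every library. Of the 5 tested, 4 had fitted values above 0 against vehicle in each comparison. The lowest were -3.48 after R788 + anti-PDL1 (Gata3) and -0.39 with radiation added. The 6 fibroblast markers summed to 2506 to 5367 CPM and the 5 endothelial markers to 33.1 to 110 CPM over all tumors. The part of any of these cell types in the class I values was not tested.

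**Figure D5:**
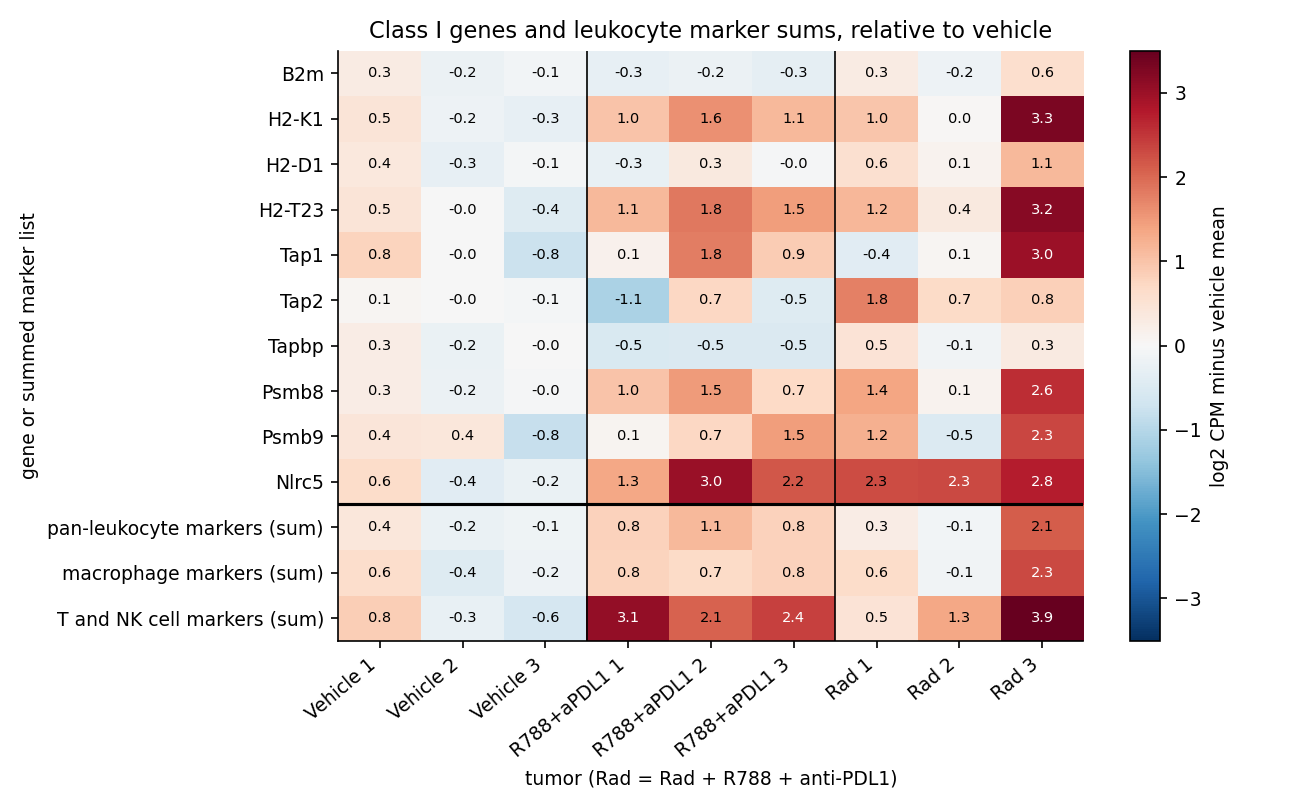
Log2 CPM minus the vehicle mean for the 10 genes (upper rows) and for the summed pan-leukocyte, macrophage and T and NK cell markers (lower rows) in the 9 tumors. Red is above the vehicle mean and blue below it, with the value printed in each cell. Irradiated replicate 3 is red for all 10 genes and for all 3 marker sums, and Nlrc5 is red in all 6 treated tumors.

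Across the 9 tumors the 10 genes did not follow a single pattern. H2-K1 and H2-T23 had the most alike log2 CPM (Pearson r = 0.99, n = 9 tumors, and 0.98 without irradiated replicate 3), and H2-K1 and Psmb8 came close (0.96 and 0.92). B2m and Tapbp formed another pair, at 0.90 and 0.94 without that tumor. Genes of different pairs were less alike, with H2-K1 and Tapbp at 0.15 and -0.33 without that tumor. The lowest value of all was that of Nlrc5 and Tapbp, at -0.03, and without that tumor it was that of Tap1 and Tapbp, at -0.50. Nlrc5 was closest to H2-T23, at 0.79 and 0.84 without that tumor. These values describe 9 libraries that share their treatments and scaling and carry no test.

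The genes most like the mean of the 10 were sought among 11631 others whose mean count reached 50. They were Slfn5 (Pearson r = 0.98, Spearman rho = 0.97, n = 9), Dok3 (0.97 and 0.92), H2-Eb1 (0.97 and 0.93), Naaa (0.97 and 0.97), Cep85 (0.96 and 0.97), Fcrls (0.96 and 0.97), Pld4 (0.96 and 0.93) and Cd74 (0.96 and 0.93). Without irradiated replicate 3 these r were 0.91 to 0.98. H2-Eb1 encodes an MHC class II beta chain and Cd74 the class II invariant chain. H2-Eb1 stood at 199 CPM in irradiated replicate 3 against 11.5 to 78.8 CPM in the other tumors, and Cd74 at 656 against 39.9 to 304 CPM.

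Of the other class I heavy chain genes, 13 of 19 passed the low-count filter, and 0 were called in any comparison by edgeR or DESeq2. At an unadjusted p under 0.05 by edgeR, 1 was lower after R788 + anti-PDL1 than in vehicle, where 5.69% of all genes were. With radiation added 3 were higher than in vehicle, where 7.71% of all genes were. Between the treated groups 0 passed, where 11.7% of all genes were higher and 6.65% lower. H2-Q7, a nonclassical Qa-2 gene, was at 4.20, 2.11 and 1.48 CPM in vehicle tumors, 3.09, 14.2 and 7.58 CPM after R788 + anti-PDL1, and 4.79, 3.55 and 38.0 CPM with radiation added. It overlapped between all groups and had log2 fold changes of 1.68 ± 0.93 and 2.57 ± 0.95 against vehicle (adjusted p = 0.557 and 0.328 by edgeR), and the closely related H2-Q6 1.44 ± 0.92 and 2.39 ± 0.93. H2-T22 had the lowest value of the list after R788 + anti-PDL1, at -0.62 ± 0.26, with no overlap with vehicle. Its values were 32.5 to 46.7 CPM in vehicle and 25.9 to 27.5 CPM in the drug-treated tumors. H2-T10 was at -0.39 ± 0.64 in that comparison. Mr1 and H2-M5 had the lowest values with radiation added, -0.62 ± 0.32 and -0.07 ± 0.47 against vehicle, and H2-Q10 the highest between the treated groups, 1.16 ± 0.81.

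The partners of loading in the endoplasmic reticulum showed smaller differences. Of Calr, Canx, Pdia3, Erap1 and Tapbpl, all 5 were tested and 0 were called or had an unadjusted p under 0.05 in any comparison. Tapbpl, which edits peptides outside the transporter complex, had the highest values against vehicle, 0.50 ± 0.37 and 0.64 ± 0.37. Pdia3, the disulfide partner of tapasin, was at -0.36 ± 0.24 after R788 + anti-PDL1, and the chaperone Canx at -0.52 ± 0.25 with radiation added.

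The other proteasome genes that were listed had values below 0 after R788 + anti-PDL1, for 13 of 13 genes. Of all genes tested, 48.4% were above 0 in that comparison. Of the 13, 0 had an unadjusted p under 0.05 by edgeR there. Psmb10, the inducible partner of Psmb7, was at -0.10 ± 0.61 after R788 + anti-PDL1, and the activator genes Psme1 and Psme2 at -0.54 ± 0.37 and -0.59 ± 0.57, both without overlap with vehicle. With radiation added all 3 were above 0 against vehicle, at 1.37 ± 0.62, 0.51 ± 0.37 and 1.13 ± 0.57. In the irradiated against the drug-treated group, all 3 of these, all 3 constitutive subunits and 4 of 7 alpha ring genes were higher at an unadjusted p under 0.05, where 11.7% of all genes were, and 0 were called by edgeR. DESeq2 called Psme2 (adjusted p = 0.0479, up to 0.528 in the other alternatives). Irradiated replicate 1 was far above the others here. Psmb10 was at 207 CPM there against 30.3 to 44.3 CPM in the other 8 tumors, and Psme2 at 264 against 34.1 to 68.5 CPM. The constitutive subunits Psmb5, Psmb6 and Psmb7 were at 1.25 ± 0.47, 1.17 ± 0.51 and 1.17 ± 0.49 between the treated groups, and at -0.43 ± 0.47, -0.32 ± 0.50 and -0.44 ± 0.48 for R788 + anti-PDL1 against vehicle. Among the alpha ring genes, Psma6 and Psma3 had the highest values between the treated groups, 1.11 ± 0.40 and 1.04 ± 0.44. Of the cytosolic peptidases, which trim peptides before transport, Npepps was lower with radiation added, at -0.82 ± 0.22 against vehicle (adjusted p = 0.221 by edgeR) and -0.71 ± 0.22 against R788 + anti-PDL1 (0.222), without overlap in either. DESeq2 called it in both (adjusted p = 0.0209 and 0.0419), and no other alternative did.

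Upstream of class I, 11 interferon receptor and signalling genes were tested, and 0 were called by edgeR in any comparison. DESeq2 called 1 lower, 0 and 2 higher in the 3 comparisons, where it called 4.86%, 3.85% and 5.62% of all genes. Socs1, an inhibitor of this signalling that interferon induces, was after R788 + anti-PDL1 at -0.996 ± 0.26 (adjusted p = 0.143 by edgeR), below all vehicle tumors. The irradiated against the drug-treated group gave Socs1 at 1.08 ± 0.26 (0.184) and Ifnar2, a type I interferon receptor chain, at 0.84 ± 0.24 (0.222), both without overlap. Of 13 factors that act at class I promoters, 0 were called by edgeR or DESeq2. The highest after R788 + anti-PDL1 was Irf8, at 1.10 ± 0.57, and Irf1 was at -0.35 ± 0.23. With radiation added Nfyb, a subunit of the CCAAT-binding factor NF-Y, was at -0.49 ± 0.18 against vehicle (unadjusted p = 0.0197 and adjusted p = 0.317 by edgeR), and Creb1 at -0.62 ± 0.33, neither overlapping with vehicle.

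Of 12 genes induced by interferon gamma, Igtp alone was called by edgeR, after R788 + anti-PDL1, where 0.678% of all genes were. Igtp overlaps Irgm2 (90 to 467 counts) on its own strand, so the counts of these 2 genes could include reads of each other. Igtp, an immunity-related GTPase, was at 17.9, 27.4 and 28.2 CPM in vehicle tumors, 8.86, 7.38 and 7.01 CPM after R788 + anti-PDL1, and 16.1, 13.7 and 20.4 CPM with radiation added. It fell after R788 + anti-PDL1, by 1.66 on the log2 scale (SE 0.26, adjusted p = 0.0383 by edgeR), and all 3 drug-treated tumors were below all others. Of the 17 alternatives 9 called it and 8 did not, with log2 fold changes of -1.82 to -1.55 and adjusted p up to 0.222, and the replicate block, under which 0 genes were called, was among the 8. The median of the 12 was -0.56 in that comparison, where the 10 class I presentation genes had 0.89. Ciita, the class II counterpart of Nlrc5, had the highest values of the list against vehicle, 2.42 ± 1.20 and 2.78 ± 1.21 (adjusted p = 0.495 and 0.372), and stood at 14.4 CPM in irradiated replicate 3 against 0.221 to 6.73 CPM elsewhere. Cxcl9 was at -0.95 ± 0.85 and -0.92 ± 0.85.

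On the side of the cells that read class I, 8 of 10 receptor genes were tested, all 8 were above 0 against vehicle in both comparisons, and 0 were called by edgeR or DESeq2. Pirb, an inhibitory class I receptor of myeloid cells, was at 4.18 to 7.84 CPM in vehicle tumors, 11.6 to 21.7 CPM after R788 + anti-PDL1, and 5.16, 6.29 and 53.3 CPM in irradiated replicates 1 to 3. Its log2 fold changes against vehicle were 1.39 ± 0.80 and 1.82 ± 0.80. Cd8a, the CD8 chain that contacts class I, was at 4.47 CPM in irradiated replicate 3 and at 0 to 0.956 CPM in the other 8 tumors. Its values against vehicle were 0.50 ± 1.41 and 2.04 ± 1.41, from 0 to 98 counts.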

How the data were processed

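Whole tumors were sequenced. Per the paper's methods, the authors mapped reads to mm10 with STAR and estimated gene counts by Salmon, run through bcbio (STAR 2.6.1d and Salmon 1.4.0 in the submitters' processing notes). The deposited table held unnormalized expected counts per gene symbol as whole numbers; Salmon's estimates need not be whole, so rounding before deposit is inferred. The labels' extraction text speaks of macrophage RNA while their tissue is whole tumor, they name a paired-end run where the paper gives single reads, and strandedness was not given in the sources used here.

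Genes were filtered with filterByExpr (minimum count 10), scaled by TMM and tested with edgeR 4.0.16 (under R 4.3.3), using the robust quasi-likelihood F test with all 9 libraries, a coefficient per group and no covariate. Adjusted p-values are Benjamini-Hochberg over the 15931 genes tested, called under 0.05, and SE is the log2 fold change divided by the root of F. The study's own tool, DESeq2 1.42.0, limma-voom (limma 3.58.1), RLE and upper quartile normalization, both filter alternatives, the 6 libraries compared, each library left out and a replicate block were alternatives. The script was tested on simulated data. Log2 CPM used a prior count of 2 and ratios added 0.5 to each count. Symbols were matched to GENCODE M21 for 53775 of 54429, and 160 of 161 listed genes were in the table. The table had 26464 symbols at 0 in all libraries. Of each pathway list, called genes and the 2 highest and 2 lowest tested log2 fold changes per comparison could be named, all of lists under 5. The most alike genes were the 8 with the highest r, with Gm and Rik names skipped. The 10 genes, the lists and the promoter patterns were chosen with earlier results of these data known. Some genes of the lists are not reported here.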

Additional observations from a re-analysis of the deposited data

How the results depend on the processing

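Over the 17 alternatives, the number of the 10 genes called for R788 + anti-PDL1 against vehicle was 0, except 1 with DESeq2, 1 without a low-count filter, 3 with only the 6 libraries compared and, leaving out a library, 0 to 1 (1 without irradiated replicate 1). For Rad + R788 + anti-PDL1 against vehicle it was 3 with DESeq2 and 1 without a low-count filter, and between the treated groups 1 with DESeq2. Leaving out a library, the medians over the 10 genes ran from 0.57 to 1.13, 0.53 to 1.93 and -0.14 to 1.02 in the 3 comparisons. The log2 ratio of Psmb8 to Psmb5 ran from 1.21 to 1.69, -0.072 to 1.45 and -1.55 to -0.02, that of Psmb9 to Psmb6 from 0.70 to 1.53, -0.45 to 1.09 and -1.55 to -0.01, that of H2-K1 to H2-D1, added after seeing the data, from 1.13 to 1.28, 0.15 to 1.28 and -1.08 to 0.052, and the summed heavy chains from 0.01 to 0.31, 0.30 to 1.07 and 0.13 to 0.90. No p under 0.05 was reachable for these. Near 0, H2-D1 in R788 + anti-PDL1 against vehicle ran from -0.18 to 0.24 and Tap2 from -0.76 to 0.25 on leaving out a library, and Tap2 was at 0.018 under upper quartile normalization. On leaving out a library Tap1 ran from -0.29 to 2.11 for the irradiated group against vehicle. Between the treated groups H2-K1 ran from -0.69 to 1.29, H2-T23 from -0.70 to 1.002, Tap1 from -1.27 to 1.17, Psmb8 from -0.21 to 1.03, Psmb9 from -0.27 to 1.04 and Nlrc5 from -0.21 to 0.64, the lowest without irradiated replicate 3, except for Nlrc5, which was at -0.06 there and lowest without drug-treated replicate 1. The cause of these moves was not tested beyond the libraries left out.

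With the replicate block, 0 of the 10 genes were called in any comparison and the medians were 0.69, 1.12 and 0.43. The numbers follow accession order and same-numbered libraries deviated with r of -0.05 to 0.23, so they name samples and pair nothing.

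Over all genes, 108 were called for R788 + anti-PDL1 against vehicle, against 770 with DESeq2, 594 with only its 6 libraries, 199 without a filter, 0 with the replicate block and 0 to 856 on leaving out a library, the highest without irradiated replicate 1. For Rad + R788 + anti-PDL1 against vehicle, 7 were called, against 611 with DESeq2, 12 with limma-voom, 70 without a filter, 1 with its 6 libraries, 3 with the block and 1 to 57 on leaving out a library. Between the treated groups 1 was called, against 822, 8, 24, 0, 0 and 0 to 21. The common dispersion was 0.146, with 3 tumors a group, and of the 10 genes Psmb9 had the lowest range of counts, 15 to 175.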
